A study of Mus musculus with 8 samples.

Results

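NF-κB is a family of dimeric transcription factors whose message levels were followed here in natural killer (NK) cells through 10 genes, the 5 subunits *Rel*, *Rela*, *Relb*, *Nfkb1* and *Nfkb2*, the IκB family members *Nfkbia*, *Nfkbib*, *Nfkbie* and *Nfkbiz*, and *Tnfaip3*, which encodes the deubiquitinase A20. The genes were taken by symbol as a known pathway, with earlier results of these data known. All 10 were found among the 48321 gene symbols of the count data and all 10 were among the 12595 genes that passed the filter on low counts. The RNA came from CD45+ TCRb- NK1.1+ cells sorted from lung and spleen of C57/Bl6 mice, with 2 libraries in each of 4 groups. Lung WT and Spleen WT cells came from mice with an intact *Ccl5* locus. Lung KO and Spleen KO cells came from mice that lack Ccl5-PE, the proximal enhancer of the chemokine gene *Ccl5*, in the germ line and so in every cell. The labels give neither age nor sex, and the methods describe the study's mice in general as no older than a few months and of mixed sexes. Neither source says whether both libraries of a group stem from different mice, so p-values measure the spread between libraries, which may be technical. The methods state that mouse lines were housed and bred separately.

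In resting cells, NF-κB dimers are held inactive in the cytoplasm by IκB proteins such as IκBα (*Nfkbia*), and receptor signals activate the IκB kinase, which marks IκB for destruction and frees the dimers to enter the nucleus. In the canonical pathway the dimers are built mainly of RelA or c-Rel with p50, the product of *Nfkb1*, and in the non-canonical pathway of RelB with p52, the product of *Nfkb2*. *Nfkbia*, *Nfkbie* and *Tnfaip3* are themselves classical NF-κB target genes, so that their products end the response that induced them, and in NK cells the pathway acts downstream of receptors for interleukin-18 and of members of the TNF receptor family.

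Promoter sequence, taken from RefSeq (GRCm38.p6), covered 250 bases before to 50 bases after the annotated start for 7 of the 10 genes. *Relb*, *Nfkb1* and *Nfkbiz* had no entry. The κB consensus, searched on both strands with overlapping matches counted, occurred in at least 1 window of 5 of these 7 genes (*Rel*, *Nfkb2*, *Nfkbia*, *Nfkbie* and *Tnfaip3*) and in no window of *Rela* or *Nfkbib*. Over all 27025 genes with a window it occurred in 9.55%. The 3 stretches before the transcription start in which the match lay outside annotated exons are shown because they place the letters bound by the family beside 3 genes of the family. They are written 5′ to 3′ on the strand of the gene, with the match in capitals.
Rel, chr11:23770971-23771219, minus strand: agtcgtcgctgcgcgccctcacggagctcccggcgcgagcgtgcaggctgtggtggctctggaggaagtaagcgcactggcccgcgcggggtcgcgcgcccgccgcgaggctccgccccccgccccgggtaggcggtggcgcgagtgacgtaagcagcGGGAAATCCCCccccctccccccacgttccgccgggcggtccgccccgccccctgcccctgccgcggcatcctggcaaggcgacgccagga
Nfkbia, chr12:55492648-55492897, minus strand: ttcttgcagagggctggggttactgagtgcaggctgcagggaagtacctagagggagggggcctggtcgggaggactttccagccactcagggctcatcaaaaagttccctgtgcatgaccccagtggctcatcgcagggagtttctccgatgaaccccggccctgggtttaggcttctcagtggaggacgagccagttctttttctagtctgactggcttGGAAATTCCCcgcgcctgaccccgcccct
Nfkbie, chr17:45555450-45555699, plus strand: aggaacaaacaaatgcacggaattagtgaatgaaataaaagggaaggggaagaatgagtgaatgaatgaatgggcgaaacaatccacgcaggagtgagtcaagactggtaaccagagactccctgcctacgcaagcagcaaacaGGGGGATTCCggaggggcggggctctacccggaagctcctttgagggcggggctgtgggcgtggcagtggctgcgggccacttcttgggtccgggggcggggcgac
The capitals in *Rel* hold 2 overlapping matches, the first beginning 92 bases before the start. The match began 29 bases before the start in *Nfkbia* and 106 bases before it in *Nfkbie*. In *Tnfaip3*, GGAAATCCCC began 12 bases and GGGACACCCC 125 bases before the start in the window from position 19015361. Its window from position 19011914 held no match. All 3 windows of *Nfkb2* held a match. In the window from position 46304487 these were GGGAATTCCC at 39, overlapping GGAATTCCCC at 38, and GGGGCTTTCC at 11 bases before the start. The window from 46305445 held GGAATGTCCC at 236 bases before and GGGACTTTCC at 10 bases after the start. The window from 46305680 overlaps that window and held the same GGGACTTTCC, there 225 bases before the start. A match is a description of the letters and not evidence that a factor was bound in these cells.

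Between 3132963 and 26482366 reads were counted on genes per library, so that 3 reads corresponded to between 0.115 and 0.979 CPM (counts scaled to a common library total, with TMM factors), a limit that covers counting error only. *Ccl5* itself lay between 15700 and 19500 CPM in the 4 WT libraries and between 2430 and 3200 CPM in the 4 KO libraries, in the order the labels give. None of the 12 NK cell markers was at 0 in any library. The libraries of a group differed little beyond counting noise (variance 1.19 to 1.43 times that of counting alone), and no group held 1 library counted under 2 names. In bulk RNA, fewer cells that express a gene and less RNA per cell cannot be told apart.

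Per kilobase of transcript, *Nfkbia* was the most abundant of the 10 messages in every group, with lung means of 104 CPM per kilobase (WT) and 153 (KO) and spleen means of 130 (WT) and 112 (KO). The place of *Tnfaip3* depended on the organ. It ranked 2 in lung, at 42.7 CPM per kilobase in WT and 64.1 in KO, but 5 in Spleen WT at 10.8 and 6 in Spleen KO at 5.67, and in both spleen groups its range overlapped that of *Nfkbie*. Of the subunits, *Nfkb1* was the most abundant in each group, at 33.4 to 45.2 CPM per kilobase. *Rela* followed at 14.1 to 28.1, and *Rel*, *Relb* and *Nfkb2* lay at or below 5.41 in all groups. Within that last set the order was not resolved everywhere. *Relb* and *Nfkb2* overlapped in Lung WT, and *Relb* and *Rel* overlapped in Lung KO and in Spleen WT. *Nfkbiz* overlapped *Nfkb2* in Spleen WT and *Relb* in Spleen KO, and *Nfkb1* overlapped *Nfkbib* in Lung KO. The other neighbours in the order did not overlap.

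**Figure D1:**
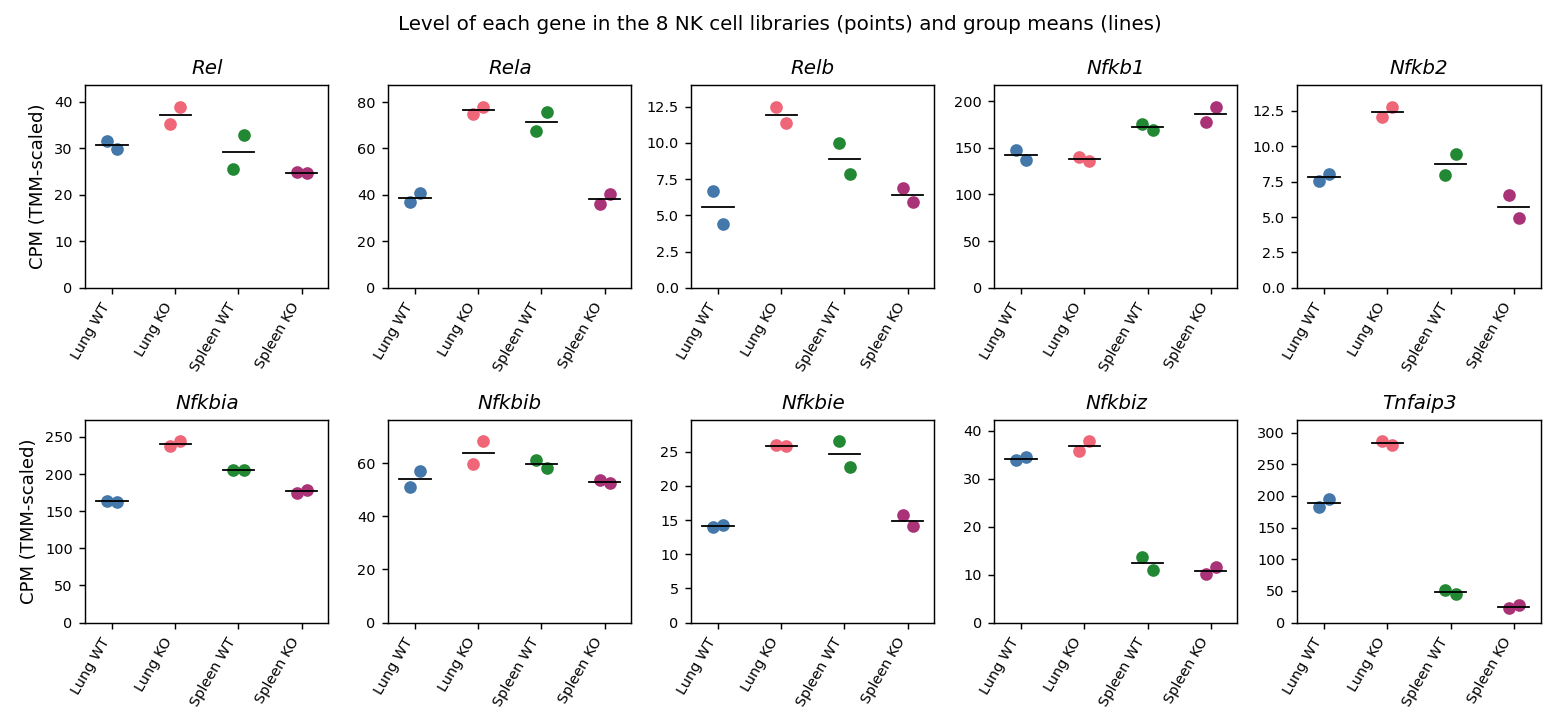
Level of each of the 10 genes in CPM (linear axis from 0, scaled by TMM), with 1 point per library and a line at the mean of the 2 libraries of each group. For *Rela*, *Relb*, *Nfkb2*, *Nfkbia* and *Nfkbie* the Lung KO points lie above Lung WT and the Spleen KO points below Spleen WT, while *Nfkbiz* and *Tnfaip3* are separated first by organ.

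The first question was whether loss of the enhancer was accompanied by a change of these genes in lung. In Lung KO, 8 of the 10 were higher than in Lung WT when called at an adjusted p of 0.05 (quasi-likelihood F test of edgeR, Benjamini-Hochberg), and none was lower. With a per-library GC trend removed, 6 were called (54.6% of all genes) and *Nfkbib* turned to lower, uncalled. The shares that follow are without that removal. Over all genes tested, 55.6% were called in this comparison, 29.2% higher and 26.4% lower. The median log2 fold change was 0.58 over the 10 genes and 0.02 over all genes. In Spleen KO, 8 of the 10 were again called, but 7 were lower and only *Nfkb1* was higher (with the GC trend removed, 5 were called, against 55.6% of all genes). In spleen 57.1% of all genes were called, 28.2% higher and 28.9% lower, and the medians were -0.40 over the 10 genes and 0 over all genes. The 7 genes higher in lung and lower in spleen were *Rel*, *Rela*, *Relb*, *Nfkb2*, *Nfkbia*, *Nfkbie* and *Tnfaip3*, and 14.2% of all genes tested had that pattern. Libraries of KO and WT did not overlap for 9 of the 10 genes in lung (all genes 76%) and for 9 of the 10 in spleen (all genes 73.8%). The organs share no library. Without Lung WT replicate 1, the lung count was 5 (40.5% of all genes). Without Spleen WT replicate 2 the spleen count was 5 (40.6%) and without Spleen KO replicate 2 it was 4 (35.2%), and the number of genes with opposite changes was 4 without Spleen KO replicate 2. The share of all genes with opposite changes was not computed without that library. The calls rest on a narrow spread between libraries. With a biological coefficient of variation of 0.2 assumed in place of the estimated 2.5%, 2 genes were called in lung (*Rela* and *Relb*, against 12.4% of all genes) and 2 in spleen (*Rela* and *Tnfaip3*, against 9.08%).

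**Figure D2:**
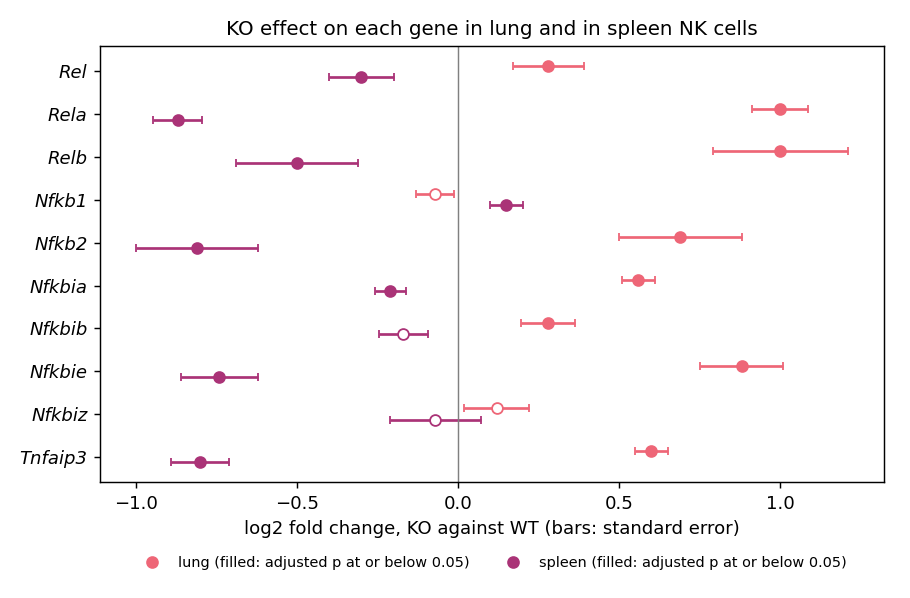
Log2 fold change of KO against WT (x axis) in lung and in spleen for each gene, with bars of 1 standard error and open points where the adjusted p was above 0.05. In lung 8 points are filled, all to the right of 0, and in spleen the points of 7 of those genes, all but *Nfkbib*, are filled and lie to the left.

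*Rela* (ENSMUSG00000024927, chromosome 19, 5637483 to 5648130, plus strand, GRCm38) encodes the transactivating p65 subunit and had the smallest p of the subunits in both organs. It was counted at 37.0 and 40.7 CPM in Lung WT and at 74.7 and 78.0 CPM in Lung KO. In spleen the values were 67.7 and 75.5 CPM in WT and 36.2 and 40.5 CPM in KO. The groups did not overlap in either organ, whereas Lung KO overlapped Spleen WT and Lung WT overlapped Spleen KO. The log2 fold change was 1.0 (SE 0.09, adjusted p = 2.8e-12, quasi-likelihood test of edgeR, Benjamini-Hochberg adjusted) in lung and -0.87 (SE 0.08, adjusted p = 3.6e-12) in spleen. These correspond to a level 2-fold higher in lung and 1.82-fold lower in spleen KO.

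*Rel* (ENSMUSG00000020275, chromosome 11, 23736847 to 23770970, minus strand) encodes c-Rel, the other canonical subunit with a transactivation domain. Its levels were 31.5 and 29.8 CPM (WT) against 35.2 and 38.9 CPM (KO) in lung, and 25.5 and 32.8 CPM (WT) against 24.8 and 24.6 CPM (KO) in spleen. The libraries did not overlap between genotypes, but Spleen WT replicate 1 lay close to the KO libraries. The log2 fold change was 0.28 (SE 0.11, adjusted p = 0.031 from the same test) in lung and -0.30 (SE 0.10, adjusted p = 0.013) in spleen. Both calls rested on single libraries. In lung the adjusted p was 0.089 without Lung WT replicate 1, 0.095 without Lung WT replicate 2 and 0.29 without Lung KO replicate 2. In spleen the log2 fold change of *Rel* was -0.05 (adjusted p = 0.83) without Spleen WT replicate 2, and the adjusted p was 0.22 without Spleen KO replicate 2.

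*Relb* (ENSMUSG00000002983, chromosome 7, 19606217 to 19629438, minus strand) and *Nfkb2* (ENSMUSG00000025225, chromosome 19, 46304320 to 46312385, plus strand) encode the partners of the non-canonical dimer and gave the fewest CPM of the subunits. *Relb* was counted in lung at 6.71 and 4.40 CPM (WT) and 12.5 and 11.4 CPM (KO), and in spleen at 9.99 and 7.83 CPM (WT) and 6.86 and 5.90 CPM (KO). *Nfkb2* stood in lung at 7.58 and 8.03 CPM (WT) and 12.1 and 12.8 CPM (KO), and in spleen at 7.99 and 9.46 CPM (WT) and 6.53 and 4.90 CPM (KO). For both genes all KO libraries lay above WT in lung and below WT in spleen. In lung the log2 fold change was 1.0 (SE 0.21, adjusted p = 0.00012, edgeR's quasi-likelihood test) for *Relb* and 0.69 (SE 0.19, adjusted p = 0.0023) for *Nfkb2*. In spleen it was -0.50 (SE 0.19, adjusted p = 0.024) for *Relb* and -0.81 (SE 0.19, adjusted p = 0.00041) for *Nfkb2*. Single libraries decided several of these calls. The adjusted p of *Relb* in spleen was 0.15 without Spleen WT replicate 1 and 0.50 without Spleen KO replicate 2. That of *Nfkb2* was 0.058 in lung without Lung WT replicate 1, and in spleen 0.07 without Spleen WT replicate 2 and 0.29 without Spleen KO replicate 2. Exons of *Nfkb2* overlap those of *Psd* on the other strand by 299 bp, and *Psd* itself had 2 to 16 reads per library. A larger overlap of 531 bp is with the non-coding gene *AC114539.1* on the other strand, which the count data do not hold under that name. The strand setting of the counting was not given in the sources used here.

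*Nfkb1* (ENSMUSG00000028163, chromosome 3, 135584655 to 135691547, minus strand), which encodes p105 and its product p50, did not follow the other subunits. It was counted at 148 and 137 CPM in Lung WT and 140 and 136 CPM in Lung KO, which overlapped. In spleen the values were 175 and 169 CPM in WT and 178 and 194 CPM in KO. The log2 fold change was -0.07 (SE 0.06, adjusted p = 0.36) in lung and 0.15 (SE 0.05, adjusted p = 0.013) in spleen, a change of 1.11-fold. Without Spleen WT replicate 2 or Spleen KO replicate 2, the adjusted p of *Nfkb1* in spleen was 0.20 or 0.63.

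*Rela* and *Nfkb1* together set how much p65 message there is for each p50 message. Per kilobase, that ratio was 0.380 and 0.450 (WT) and 0.810 and 0.872 (KO) in the lung libraries, against 0.585 and 0.678 (WT) and 0.309 and 0.317 (KO) in the spleen libraries. No groups overlapped. With 2 libraries against 2, an exact permutation test cannot give a p below 0.333, so no test is given. Summed per kilobase, the 5 subunits lay in lung at 56.8 to 59.2 CPM (WT) and 75.7 to 76.1 (KO), and in spleen at 78.0 to 79.7 (WT) and 65.1 to 69.6 (KO).

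Among the inhibitors, *Nfkbia* (ENSMUSG00000021025, chromosome 12, 55489410 to 55492647, minus strand) encodes IκBα, the inhibitor that NF-κB resynthesizes first. It was counted at 164 and 163 CPM in Lung WT and 238 and 244 CPM in Lung KO. In spleen the values were 205 and 206 CPM in WT and 175 and 179 CPM in KO. The genotypes did not overlap in either organ, and the log2 fold change was 0.56 (SE 0.05, adjusted p = 6e-12, edgeR's quasi-likelihood test) against -0.21 (SE 0.05, adjusted p = 0.00033) in spleen. *Nfkbie* (ENSMUSG00000023947, chromosome 17, 45555703 to 45563169, plus strand), which encodes IκBε, a later feedback inhibitor, also rose in lung and fell in spleen. It stood in lung at 14 and 14.2 CPM (WT) and 26.0 and 25.8 CPM (KO), and in spleen at 26.5 and 22.8 CPM (WT) and 15.7 and 14.1 CPM (KO). Its log2 fold change was 0.88 (SE 0.13, adjusted p = 8.4e-07) in lung and -0.74 (SE 0.12, adjusted p = 9.3e-07) in spleen, and the groups did not overlap in either organ.

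*Nfkbib* (ENSMUSG00000030595, chromosome 7, 28758251 to 28767512, minus strand) encodes IκBβ, which is not among the rapidly induced inhibitors. Its values in lung were 51.2 and 57.2 CPM (WT) and 59.6 and 68.2 CPM (KO), and in spleen 61.2 and 58.3 CPM (WT) and 53.5 and 52.5 CPM (KO). No libraries overlapped between genotypes, but the gaps were small. The log2 fold change was 0.28 (SE 0.08, adjusted p = 0.0055) in lung and -0.17 (SE 0.08, adjusted p = 0.051) in spleen, where it was not called. In lung the adjusted p of *Nfkbib* was 0.26 without Lung WT replicate 1 and 0.24 without Lung KO replicate 2. In spleen it fell to 0.047 to 0.049 when Lung WT replicate 2 or either Lung KO library was left out. Exons of *Nfkbib* overlap those of *Sirt2* by 42 bp and of *Ccer2* by 314 bp on the other strand. *Sirt2* had 349 to 2906 reads and *Ccer2* at most 4. *Nfkbiz* (ENSMUSG00000035356, chromosome 16, 55811375 to 55838899, minus strand) encodes IκBζ, a nuclear member that acts on the transcription of secondary response genes. It stood in lung at 33.9 and 34.5 CPM (WT) and 35.8 and 37.8 CPM (KO), and in spleen at 13.7 and 11 CPM (WT) and 10.1 and 11.5 CPM (KO), where the genotypes overlapped. The KO effect passed the test in neither organ (log2 fold change 0.12, SE 0.10, adjusted p = 0.35 in lung and -0.07, SE 0.14, adjusted p = 0.73 in spleen).

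*Tnfaip3* (ENSMUSG00000019850, chromosome 10, 19000910 to 19015657, minus strand) encodes A20, which removes the ubiquitin chains that carry the signal to the IκB kinase. It was counted at 183 and 195 CPM (WT) and 286 and 281 CPM (KO) in lung, and at 50.7 and 44.4 CPM (WT) and 22.9 and 27.3 CPM (KO) in spleen. The 4 groups did not overlap. The log2 fold change was 0.60 (SE 0.05, adjusted p = 4.3e-12, edgeR's quasi-likelihood test) in lung and -0.80 (SE 0.09, adjusted p = 1e-09) in spleen, or 1.51-fold higher and 1.75-fold lower.

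Whether the KO effect differed between the organs was tested directly, as the lung effect minus the spleen effect on the log2 scale. It differed for 9 of the 10 genes, with 8 more positive in lung and *Nfkb1* more negative (all genes 61.6%, 32.5% and 29%). The difference was 1.87 for *Rela* (SE 0.11, adjusted p = 1e-16, edgeR's quasi-likelihood test), 1.62 for *Nfkbie* (SE 0.18, adjusted p = 4.2e-10), and 1.5 for both *Relb* (SE 0.29, adjusted p = 2.3e-05) and *Nfkb2* (SE 0.27, adjusted p = 8.6e-06). For *Tnfaip3* it was 1.40 (SE 0.10, adjusted p = 2e-14) and for *Nfkbia* 0.77 (SE 0.07, adjusted p = 3.7e-12). The smaller differences were 0.58 for *Rel* (SE 0.15, adjusted p = 0.0011), 0.45 for *Nfkbib* (SE 0.11, adjusted p = 0.00083) and -0.22 for *Nfkb1* (SE 0.08, adjusted p = 0.018). *Nfkbiz* did not pass (0.19, SE 0.18, adjusted p = 0.37). Without Spleen WT replicate 2 the adjusted p of *Rel* was 0.14. That of *Nfkb1* was 0.15 without Lung WT replicate 1, 0.097 without Lung KO replicate 2, 0.098 without Spleen WT replicate 2 and 0.30 without Spleen KO replicate 2. With the GC offset 8 genes differed (59.1% of all genes), 7 of them more positive in lung. The difference was then 1.14 for *Rela*, 0.91 for *Relb*, 0.77 for *Nfkb2* and 0.41 for *Nfkbia*, it turned to -0.26 for *Nfkbib* (adjusted p = 0.044), and *Nfkb1* was no longer called (-0.14, adjusted p = 0.12).

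Base composition moved with the KO effect across the whole transcriptome and in opposite directions in the organs. Across the 12497 genes with known GC content, which are not independent, the Spearman correlation of the log2 fold change with GC content was 0.29 in lung and -0.271 in spleen. Among the 10 genes, exonic GC content ran from 42.5% for *Rel* and 44.9% for *Nfkb1* to 59.4% for *Rela* and *Nfkb2*. After an offset had taken out each library's trend with GC content, the log2 fold change of *Rela* was 0.59 (adjusted p = 2.6e-07) in lung and -0.54 (adjusted p = 5.9e-08) in spleen, and that of *Nfkbie* was 0.58 and -0.52. Those of *Tnfaip3*, whose GC content was 47.1%, remained at 0.59 and -0.81. *Rel* stood at 0.33 and -0.42. These 4 genes were still called in both organs and in opposite directions. *Nfkb2* was no longer called in lung (0.28, adjusted p = 0.22), nor *Relb* (-0.24, adjusted p = 0.29), *Nfkb1* (0.09, adjusted p = 0.11) and *Nfkbia* (-0.06, adjusted p = 0.25) in spleen. *Nfkbib* changed sign in both organs, to -0.12 (adjusted p = 0.23) and 0.14 (adjusted p = 0.10). Values are from edgeR's quasi-likelihood test.

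**Figure D3:**
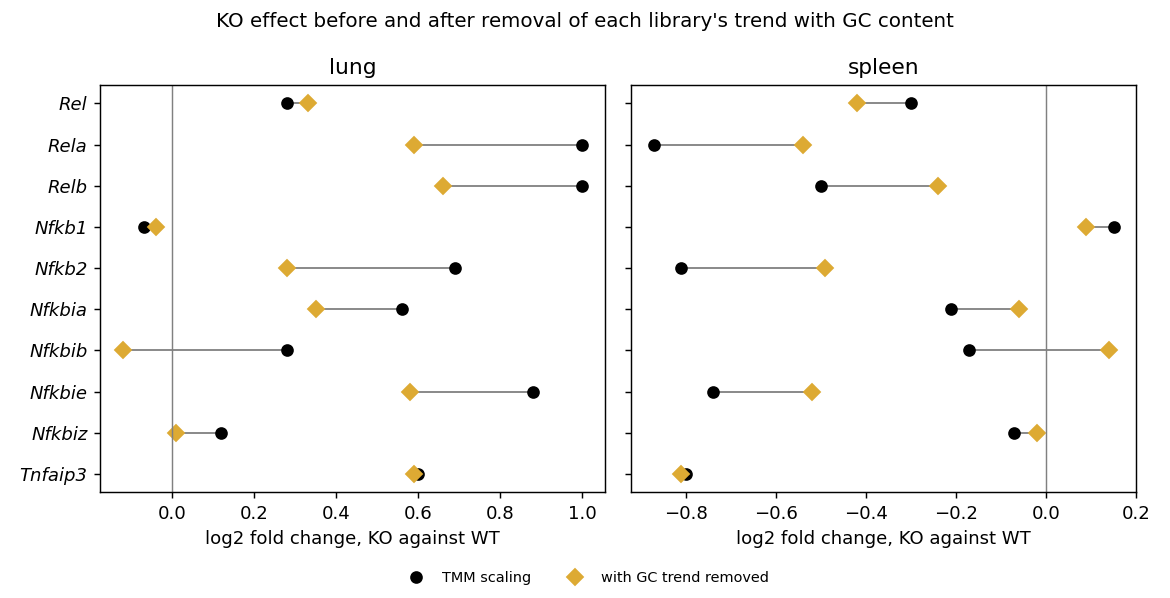
Log2 fold change of KO against WT (x axis) in lung (left) and spleen (right) before (circles) and after (diamonds) the trend of each library with GC content was removed. *Tnfaip3* barely moves, *Rela* moves from 1.0 to 0.59 in lung and from -0.87 to -0.54 in spleen, and *Nfkbib* crosses 0 in both panels.

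The second axis of the design was organ. In WT, 7 of the 10 genes differed between lung and spleen, 2 higher in lung and 5 lower (all genes 57%, 27.7% and 29.3%). The 2 were *Tnfaip3*, whose log2 difference of 2.01 (SE 0.07, adjusted p = 3.5e-24, edgeR's quasi-likelihood test) was 4.03-fold, and *Nfkbiz*, with 1.52 (SE 0.13, adjusted p = 1.8e-12) or 2.87-fold. *Rela* (-0.92), *Nfkbie* (-0.77), *Relb* (-0.53), *Nfkbia* (-0.33) and *Nfkb1* (-0.25) were lower in lung. The adjusted p of *Relb* was 0.045, and 0.24 or 0.18 without Lung WT replicate 2 or Spleen WT replicate 1. *Rel* (0.03), *Nfkb2* (-0.21) and *Nfkbib* (-0.15) did not pass. In KO all 10 differed, 9 higher in lung and *Nfkb1* lower at -0.47 (all genes 65.6%, 33.9% and 31.7%). *Tnfaip3* reached a log2 difference of 3.41 (SE 0.06, adjusted p = 1.5e-33) or 10.6-fold and *Nfkbiz* 1.71 (SE 0.11, adjusted p = 2.3e-16) or 3.27-fold. *Nfkb2* (1.29), *Relb* (0.98), *Rela* (0.94), *Nfkbie* (0.85), *Rel* (0.60), *Nfkbia* (0.44) and *Nfkbib* (0.29) followed. With the GC offset *Nfkbib* was instead lower in lung KO than in spleen KO (-0.19, adjusted p = 0.023). All 10 genes were still called, 8 higher and 2 lower, where 64.6% of all genes were called in either direction. With that offset *Rela* (0.44), *Relb* (0.58), *Nfkb2* (0.79), *Nfkbia* (0.23) and *Nfkbie* (0.52) had smaller differences. In WT, the same offset ended the call of *Relb* (-0.33, adjusted p = 0.22) and gave -0.18 for *Nfkbia*. *Nfkbib* lost its call without Lung KO replicate 2 (adjusted p = 0.14) or Spleen KO replicate 2 (adjusted p = 0.072). These comparisons share their libraries with the KO comparisons above. Libraries of the organs did not overlap for 8 of the 10 genes in WT (all genes 75.6%) and for all 10 in KO (all genes 79.4%). For *Tnfaip3* and *Nfkbiz* all 4 lung libraries lay above all 4 spleen libraries, and for *Nfkb1* all 4 lay below.

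**Figure D4:**
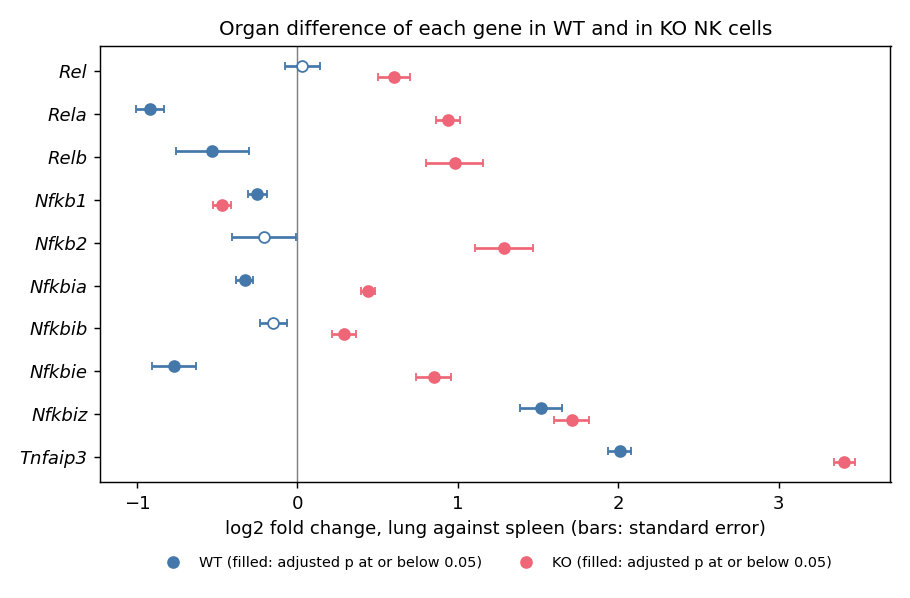
Log2 difference of lung against spleen (x axis) in WT and in KO cells for each gene, with bars of 1 standard error and open points where the adjusted p was above 0.05. *Tnfaip3* stands at 2.01 in WT and 3.41 in KO and *Nfkbiz* at 1.52 and 1.71, while *Rela*, *Relb*, *Nfkbia* and *Nfkbie* lie on opposite sides of 0 in WT and KO.

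Other genes of the pathway moved in both directions. Of 27 upstream kinases and adaptors, all tested, 12 were higher and 5 lower in Lung KO (all genes 29.2% and 26.4%). In Spleen KO, 4 were higher and 16 lower (all genes 28.2% and 28.9%). The median log2 fold change of the 27 was 0.09 in lung and -0.26 in spleen. *Irak2*, a kinase of the interleukin-1 receptor and Toll-like receptor pathway, rose from 17.1 to 33.8 CPM in lung (log2 fold change 0.98, SE 0.12) and fell in spleen (-0.45). *Irak4*, the kinase at the head of that pathway, rose in both organs (0.84 in lung and 1.17 in spleen). In spleen the IκB kinase subunits *Ikbkb* (-0.60, SE 0.06) and *Ikbkg* (-0.63, SE 0.06) fell, and so did *Tab1* (-2.17, SE 0.21), an adaptor of the kinase TAK1, from 10.5 to 2.64 CPM. In lung *Ikbkb* (0.25) and *Tab1* (1.03) rose. The other genes named under the same rule were *Tradd* (0.51), *Irak1* (-0.32), *Traf5* (-0.36) and *Bcl10* (-0.20) in lung and *Tab2* (0.25) and *Map3k7* (0.41), which encodes TAK1, in spleen. *Tradd* (-0.27), *Traf5* (-0.23) and *Bcl10* (-0.15) were also called lower in spleen.

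Of 19 receptors that signal to NF-κB, 11 were tested. In Lung KO 6 were higher and 2 lower (all genes 29.2% and 26.4%). In Spleen KO 4 were higher and 5 lower (all genes 28.2% and 28.9%). The medians of the 11 were 0.39 in lung and -0.19 in spleen. *Tnfrsf1b*, the second TNF receptor, rose in lung (0.49) and fell in spleen (-0.57), and so did *Tnfrsf1a* (0.66 and -0.30). *Tnfrsf9*, the costimulatory receptor 4-1BB, fell from 159 to 96.0 CPM in spleen (-0.70, SE 0.06) and rose slightly in lung (0.16). The costimulatory receptor *Cd27* rose in both organs (0.39 in lung and 0.36 in spleen) and *Il18rap*, a subunit of the interleukin-18 receptor, fell slightly in both (-0.11 and -0.12). *Tnfrsf18*, which encodes GITR, moved the other way (-0.29 in lung and 0.37 in spleen), and *Il18r1* rose in spleen (0.47).

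Of 15 further inhibitors and deubiquitinases, all tested, 4 were higher and 5 lower in Lung KO (all genes 29.2% and 26.4%). In Spleen KO, 2 were higher and 5 lower (all genes 28.2% and 28.9%). With libraries scaled by totals alone, 3 were lower in lung (all genes 20.3%) and 1 was higher in spleen (all genes 23.6%). *Nfkbid*, an atypical nuclear IκB, rose in lung from 6.10 to 13.4 CPM (1.16, SE 0.19), as did *Bcl3* (0.69), another nuclear IκB, and *Nkiras2* (1.08), which encodes a small GTPase that binds IκB. *Bcl3* fell in spleen (-1.13). *Commd1* (-0.75), *Nkiras1* (-0.36) and *Tnip3* (-2.12) fell in lung. In spleen the deubiquitinase *Cyld* (-0.44), the ubiquitin ligase *Itch* (-0.41) and *Tnip1* (-0.51), a partner of A20, fell, and *Rnf11* (0.31) and *Tnip3* (0.67) rose. *Tnip3* was near the limit of detection, with group means of 0.818 to 3.86 CPM.

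Of 23 textbook target genes outside the 10, 17 were tested. In Lung KO 8 were higher and 3 lower (all genes 29.2% and 26.4%), and in Spleen KO 3 were higher and 6 lower (all genes 28.2% and 28.9%). *Icam1*, an adhesion molecule, rose from 78.9 to 135 CPM in lung (0.79, SE 0.07) and fell from 100 to 66.6 CPM in spleen (-0.56, SE 0.07). *Bcl2l1*, which encodes the survival factor Bcl-xL, likewise rose in lung (0.78, SE 0.08) and fell in spleen (-0.90, SE 0.07). *Irf1* rose in lung (0.49) and *Traf1* fell in spleen (-0.44). The chemokine genes *Ccl3* and *Ccl4* rose in spleen (0.59 and 0.33), and *Ccl4* also rose in lung (0.27). Both lie in the same gene cluster as *Ccl5* and its deleted enhancer. *Cxcl10* rose in spleen (0.83) and was also called higher in lung. There it was listed at 0 in both Lung WT libraries and had a mean of 1.26 CPM in Lung KO. *Cflar* (-0.32), *Sod2* (-0.17) and *Bcl2a1b* (-1.06) fell in lung. *Bcl2a1b* has near-identical paralogues, so its value is uncertain.

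Genes of the immediate early and cell handling list, which cells induce within minutes of handling or stimulation, moved in the same directions. Of 12 tested of 14, 9 were higher and none lower in Lung KO (all genes 29.2% and 26.4%). None of the 12 was higher and 10 were lower in Spleen KO (all genes 28.2% and 28.9%). Their summed level was 1410 to 1470 CPM (WT) and 2430 to 2440 CPM (KO) in lung, against 1060 to 1110 CPM (WT) and 763 to 773 CPM (KO) in spleen, and *Hspa1a* and *Hspa1b* were at 0 in all spleen libraries. Between organs, 8 of the 12 were higher and 2 lower in lung in WT (all genes 27.7% and 29.3%, median of the list 0.86). In KO all 12 were higher in lung (all genes 33.9%, median of the list 3.23). Among them *Dusp1* stood at 3.64 in WT and 6.8 in KO. Markers of lung epithelium, endothelium and stroma summed to 326 to 336 CPM in Lung WT and 458 to 498 in Lung KO, and to 65.4 to 75.8 CPM in spleen libraries of either genotype. Of these markers, *Sftpc*, *Sftpa1*, *Scgb1a1*, *Cdh5*, *Cldn5*, *Col1a1* and *Col3a1* were at 0 in all spleen libraries, where the sum came from the others. In lung, 4 of the 7 tested of 10 were higher in KO and 1 was lower. Myeloid markers summed to 36.6 to 39.6 CPM (WT) and 40.3 to 43.9 CPM (KO) in lung, and to 21.1 to 21.5 CPM (WT) and 27.1 to 27.7 CPM (KO) in spleen, with *S100a8*, *S100a9*, *Adgre1* and *Fcgr1* at 0 in all libraries. Of 4 myeloid markers tested of 12, 1 was higher and 1 lower in Lung KO, and 1 was higher and none lower in Spleen KO. T cell markers summed to 190 to 193 CPM (WT) and 139 to 156 CPM (KO) in lung, and to 309 to 312 CPM (WT) and 327 to 335 CPM (KO) in spleen. Of 5 T cell markers tested of 10, none was higher and 2 were lower in Lung KO. In Spleen KO 2 were higher and 1, *Cd3e* (-1.6), was lower. Markers of type 1 innate lymphoid cells, which the gate could hold, summed to 126 to 130 CPM (WT) and 79.2 CPM (both KO libraries) in lung, and to 177 to 193 CPM (WT) and 154 to 167 CPM (KO) in spleen. Of these 7 markers, none was higher and 3 were lower in Lung KO, and 1 was higher and 2 were lower in Spleen KO. The NK cell markers summed to 55300 to 56900 CPM (WT) and 45100 to 45600 CPM (KO) in lung, against 40500 to 41200 CPM (WT) and 51700 to 54200 CPM (KO) in spleen. Of the 12 NK cell markers, 3 were higher and 6 lower in Lung KO, and 8 were higher and 3 lower in Spleen KO. *Tbx21* (1.13 in lung and -1.18 in spleen), *Il2rb* (1.21 and -0.61) and *Prf1* (0.74 and -0.48) moved against the sum. The shares of all genes at the head of this paragraph apply to the counts of each list. The mitochondrial share of counted reads was 1.36% to 1.45% (WT) and 0.93% to 0.95% (KO) in lung, against 0.79% to 0.80% (WT) and 0.98% to 1.0% (KO) in spleen. The part of these lists and shares in the changes and organ differences of the NF-κB genes was not tested.

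Finally, the genes whose log2 CPM across the 8 libraries was most like that of each NF-κB gene were listed among 5098 well expressed genes, as a description, since the libraries fall into 4 groups and share depth and base composition. *Tnfaip3* was most like *Dusp1*, a phosphatase gene of the early response (Pearson r = 0.998), *Fgl2* (r = 0.996) and *Ddx56* (r = 0.994). *Nfkbiz* was most like *Acin1* (r = 0.995), *Klf6* (r = 0.993), an early response transcription factor, and *Lrrfip1* (r = 0.989). *Rela* was most like *Prkch* and *Rassf5* (both r = 0.993), *Nfkbie* like *Mfsd5* (r = 0.996) and *Map4k1* (r = 0.991), and *Nfkbia* like *2810403A07Rik* (r = 0.997). For *Nfkb1* it was *Nudt16l1* (r = 0.982), for *Nfkb2* *Top3b* (r = 0.986), for *Rel* *Eaf1* (r = 0.978), for *Relb* *Sgk1* (r = 0.973) and for *Nfkbib* *Klc1* (r = 0.948).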

How the data were processed

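RNA of NK cells was sequenced with reads of 50 bp in 8 libraries, grouped by organ and genotype from the sample titles. The authors aligned reads to mm10 with HISAT2 2.1.0 and counted them on genes with HTSeq (0.11.1 in the submitters' processing notes), and the deposited values are whole-number read counts for each symbol, not normalized. Annotation and strand setting were not given in the sources used here. Rows of uncounted reads were left out. Reads on no feature were 52.7% to 55% of the reads counted on genes, on no feature or as ambiguous.

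Tests used edgeR 4.0.16 in R 4.3.3 (filterByExpr, TMM factors 0.954 to 1.033, 1 mean per group over all 8 libraries, quasi-likelihood test, Benjamini-Hochberg adjustment over 12595 genes, called at 0.05). Standard errors derive from the F statistic. Positions, lengths (longest transcript with a RefSeq pair) and GC content came from GENCODE M21. Of the symbols, 46394 matched by name, 576 by an older symbol and 1351 not at all. Alternatives were RLE and library-total scaling, no filter, DESeq2 1.42.0, the 4 libraries of a comparison, replicate number as a block, a GC offset (spline with 5 degrees of freedom), an assumed biological variation of 0.2, and omission of each library in turn. Steps were tested on simulated data. A result for 1 of the marker lists is not reported here. The 10 genes and the lists were chosen with earlier results of these data known. All 10 are named, with up to 3 genes per direction and list by smallest p and the genes of most similar profile.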

Additional observations from a re-analysis of the deposited data

Results flagged for a closer look

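A direct test found that the KO effect differed between lung and spleen for 9 of the 10 genes (lung effect minus spleen effect, log2, quasi-likelihood test of edgeR, Benjamini-Hochberg adjusted). The difference was 1.87 for *Rela*, 1.62 for *Nfkbie*, 1.5 for *Relb*, 1.5 for *Nfkb2*, 1.40 for *Tnfaip3*, 0.77 for *Nfkbia*, 0.58 for *Rel* and 0.45 for *Nfkbib*, each more positive in lung, and -0.22 for *Nfkb1*. Such a difference was found for 61.6% of all genes tested. After removal of the GC trend, 8 genes differed, where 59.1% of all genes did. The difference was then 1.14 for *Rela*, 1.1 for *Nfkbie*, 0.91 for *Relb*, 0.77 for *Nfkb2* and 1.4 for *Tnfaip3*. It was 0.41 for *Nfkbia*, 0.75 for *Rel* and -0.26 for *Nfkbib* (adjusted p = 0.044), and *Nfkb1* was not called (-0.14, adjusted p = 0.12).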

How the results depend on the processing

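Over all comparisons and alternatives, 840 log2 values of single genes were recomputed, of which 739 kept their direction and side of the threshold, 75 lost the call, 7 gained one and 6 turned from a called value to the other sign. A further 13 values, in 6 pairs of gene and comparison, changed sign with no call in either fit. The 6 reversals were all of *Nfkbib* with the GC trend removed, without and with the replicate block. They were -0.12 and -0.13 for KO against WT in lung, -0.26 and -0.26 for the difference between organs, and -0.19 and -0.17 for lung against spleen in KO. The numbers of genes called in lung KO, spleen KO, the difference, organ in WT and organ in KO (8, 8, 9, 7 and 10) became 2, 2, 5, 3 and 5 with the assumed coefficient of variation of 0.2, where 12.4%, 9.08%, 16%, 16% and 18.4% of all genes were called. DESeq2 called 5 in lung KO and 4 in spleen KO. The GC offset called 5 in spleen KO (55.6% of all genes), and 5 also with the block (56.1%). Leaving out 1 library at a time gave 5 to 8, 4 to 9, 7 to 9, 6 to 7 and 9 to 10, while 40.5% to 55.9%, 35.2% to 58%, 50.3% to 58.3%, 43.2% to 57.7% and 45% to 65.8% of all genes were called. For the 7 genes higher in lung KO and lower in spleen KO, the share of all genes (14.2%) came from the main fit only. The alternatives for these 7 genes were chosen after seeing the data, and that share was not computed for them. They gave 4 with DESeq2, 4 with the GC offset (4 also with the block), 1 with the assumed coefficient (*Rela*) and 4 to 8 with a library left out. *Rela*, *Nfkbie* and *Tnfaip3* kept both calls with the GC offset, with DESeq2 and without any 1 library. The cause of these changes was not tested. DESeq2 called 35.8% of all genes in lung and 33.1% in spleen. Library totals shifted the median log2 fold change of all genes to 0.11 in lung, where 35.1% were then higher and 20.3% lower.

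Replicate numbers are shared by the groups, and the labels do not say that they pair libraries. Deviations of equally numbered libraries correlated between -0.0758 and 0.169 over the 6 pairs of groups. Since libraries of a group differed little beyond counting noise (1.19 to 1.43 times), this cannot exclude that equally numbered libraries share mice. The main test left the numbers out. With replicate number as a block, 8 genes were called in lung KO (55.4% of all genes) and 9 in spleen KO (57%), where *Nfkbib* was added (-0.18, adjusted p = 0.035, edgeR's quasi-likelihood test).

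Depth limited *Relb* (17 to 154 reads per library) and *Nfkb2* (20 to 128 reads) most.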
